A study of Mus musculus with 6 samples.

Results

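The genes described are 58 nuclear genes for subunits of the mitochondrial respiratory complexes I to IV, chosen by symbol: 35 Nduf genes of complex I, 4 Sdh genes of complex II, 9 genes of complex III (Uqcr and Cyc1) and 10 Cox genes of complex IV. They are 58 of the 57010 genes in the deposited table, and each symbol matched a row. The 6 libraries came from skin of wild-type mice in a study of diabetic ulcers, 1 library per mouse. The gel put on the skin held CST in 3 mice and Yoda1 in the other 3. CST stands for cortistatin in the series title, a neuropeptide related to somatostatin, and Yoda1 is a small molecule that activates the mechanically gated channel Piezo1. The labels give the tissue as skin and also tag every sample with keratinocytes. They give WT as the genotype, and no age or way of inducing diabetes. Vehicle-treated or untreated skin was not analysed here, so every difference sets CST against Yoda1 and none is a change from a baseline.

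Complexes I to IV form the electron transport chain of the inner mitochondrial membrane. Complex I takes electrons from NADH and complex II takes them from succinate; both pass them through ubiquinone to complex III, then cytochrome c and complex IV, which reduces oxygen to water, and complexes I, III and IV pump protons. Complexes I, III and IV are built from nuclear and mitochondrially encoded subunits, whereas complex II is wholly nuclear. In skin, basal keratinocytes and hair follicle cells respire alongside a large glycolytic flux, and striated muscle below the dermis is much richer in mitochondria. The transcription factors NRF1, GABP (of the ETS family) and YY1 are known to act at promoters of many of these nuclear genes.

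Promoter windows of 300 bases, from 250 before to 50 after the annotated start, were on hand for 48 of the 58 genes (RefSeq, GRCm38.p6). The 3 motifs were searched on both strands as GCGCANGCG for NRF1, CCGGAAG for ETS factors and AAGATGGCG for YY1. The NRF1 letters were found in 13 of the 48 (27.1%), against 7.03% of the 27025 mouse genes with such a window. The ETS letters were found in 11 (22.9%) against 9.93%, and the YY1 letters in 5 (10.4%) against 1.64%. These matches describe letters in a window and are not measured binding. The background genes were not matched to the 48 for expression or base composition, so the higher shares cannot be tied to respiratory genes as such. The 4 genes whose windows hold matches of 2 of the factors fall 1 into each complex, and a stretch of each is printed as an example. Each runs from 170 bases before to 30 after the start, 5′ to 3′ on the gene's strand, with motif matches in capitals.
Ndufs6 (complex I, chr13:73328453-73328652, minus strand): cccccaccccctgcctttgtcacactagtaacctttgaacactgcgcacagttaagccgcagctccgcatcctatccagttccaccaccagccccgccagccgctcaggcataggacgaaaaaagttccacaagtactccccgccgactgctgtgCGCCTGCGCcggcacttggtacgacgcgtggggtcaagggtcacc
Sdhd (complex II, chr9:50603820-50604019, minus strand): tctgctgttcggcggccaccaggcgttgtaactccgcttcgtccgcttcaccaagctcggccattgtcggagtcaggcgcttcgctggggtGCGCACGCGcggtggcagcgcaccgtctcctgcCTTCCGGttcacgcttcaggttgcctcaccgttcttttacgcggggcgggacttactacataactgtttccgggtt
Uqcr11 (complex III, chr10:80406792-80406991, minus strand): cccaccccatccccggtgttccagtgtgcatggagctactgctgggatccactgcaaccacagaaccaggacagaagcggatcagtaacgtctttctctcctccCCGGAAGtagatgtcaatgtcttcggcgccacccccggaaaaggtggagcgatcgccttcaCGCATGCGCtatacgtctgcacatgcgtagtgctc
Cox6a1 (complex IV, chr5:115348929-115349128, minus strand): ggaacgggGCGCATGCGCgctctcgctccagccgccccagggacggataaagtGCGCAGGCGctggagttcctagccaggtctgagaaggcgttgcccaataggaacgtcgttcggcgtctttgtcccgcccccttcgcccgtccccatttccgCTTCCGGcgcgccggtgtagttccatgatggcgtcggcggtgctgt
All 4 stretches hold an NRF1 match, but they were picked for holding matches of 2 factors. They do not stand for the other promoters, since 13 of the 48 genes hold an NRF1 match. Those of Sdhd, Uqcr11 and Cox6a1 also hold an ETS match, and the YY1 match of Ndufs6 lies just past the printed end, 33 bases after the start. The NRF1 letters read nearly the same on both strands, so the first capitals of Cox6a1 hold 2 overlapping matches.

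Levels are given in FPKM, fragments per kilobase of gene and scaled to the mapped depth, as the authors deposited them. The depth worked out from the FPKM steps was 23791352 to 29620526 reads per library, and the 58 genes held between 102 and 12710 reads per library, so counting error was small for nearly all. CST mouse 1 and Yoda1 mouse 3 stood apart from the other libraries: mitochondrially encoded transcripts made up 6.72% and 7.61% of their FPKM sums, against 3.25% to 3.81% in the other 4. The 20 skeletal muscle markers (Acta1, Ckm, Myh4 and others) summed to 9644 to 19418 FPKM in the CST libraries and 164 to 7175 in the Yoda1 libraries, and 20 of 20 were higher in CST with a median log2 difference of 3.69. The 12 keratinocyte markers (Krt5, Krt14 and others) summed to 18721 to 29453 FPKM in CST and 15101 to 30719 in Yoda1, so keratinocyte transcripts were abundant in every library. Of these markers 11 of 12 were higher in CST, with a median difference of 0.20, and their part in the subunit levels was not tested. In such bulk tissue, fewer cells of a type and less RNA per cell cannot be told apart.

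No subunit differed between the treatments past the test. Each difference is the CST mean less the Yoda1 mean of log2(FPKM + 1), so a positive value means higher in CST. With limma, 0 of the 58 genes passed an adjusted p of 0.05; over all 14588 genes tested the share that passed was also 0%, and 4% had an unadjusted p under 0.05, against 0 of the 58. On the recovered reads limma-voom passed 0 genes as well. The means were nevertheless slightly higher in CST for 48 of the 58 genes, or 82.8%, against 47.2% of all genes tested. The median of the 58 differences was 0.13, a fold of 1.09, and -0.01 over all genes tested. That lean depended on single libraries. Without Yoda1 mouse 3, 24 of the 58 were higher in CST and the median was -0.04; it was 0.03 without CST mouse 3, 0.22 without CST mouse 1 and 0.28 without Yoda1 mouse 2. With CST mouse 1 and Yoda1 mouse 3 both left out, 38 of the 58 were higher and the median was 0.04. All 58 confidence intervals (95%) included 0. The upper limit passed a 2-fold higher level in CST in 12 genes and the lower limit a 2-fold lower level in 0, so larger differences are outside the interval for most of the genes but not for those 12.

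**Figure D1:**
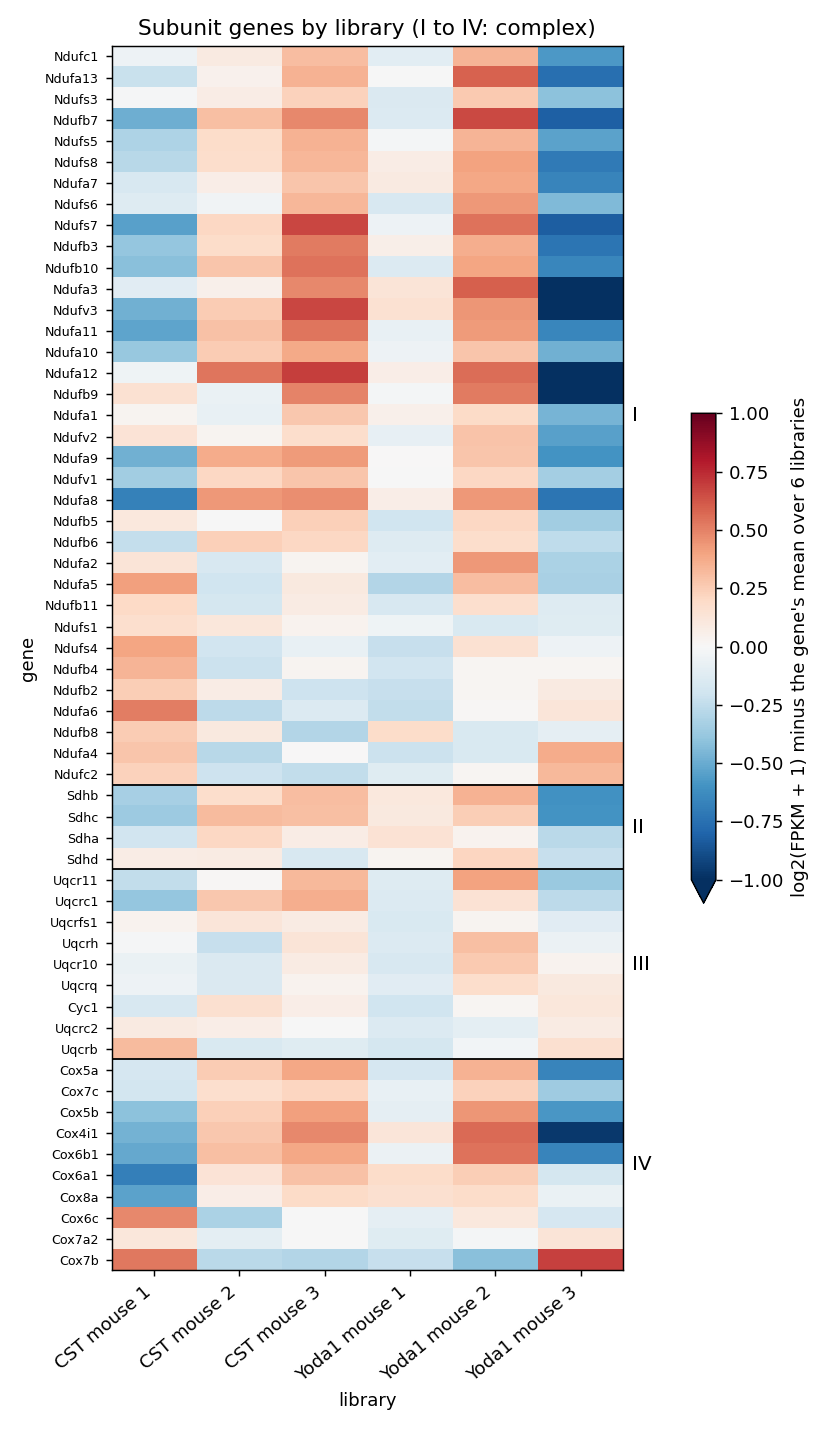
Deviation of each of the 58 subunit genes from its own mean over the 6 libraries, log2(FPKM + 1), as colour; genes are rows grouped by complex and libraries are columns. Most rows are high in CST mouse 3 and Yoda1 mouse 2 and low in Yoda1 mouse 3. In 11 rows the correlation with the mean of the other members is below 0, and not all of these reverse the pattern.

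Complex I, with 35 genes, had the most uniform direction, again without any gene past the test. In 32 of the 35 the CST mean was higher, with a median of 0.15 and a range of -0.15 to 0.79. The summed level was 4430, 4431 and 5174 FPKM in the CST libraries, given in the order of mouse number here and throughout, and 4109, 5280 and 3537 in the Yoda1 libraries. The means of the sums were 4678 ± 429 and 4309 ± 889 (SD, n = 3 each). The highest and the lowest sum both lay in the Yoda1 group, so the groups overlapped. Without Yoda1 mouse 3 the median was -0.03, with 15 of 35 genes higher in CST. With the muscle marker score as a covariate it was -0.17, with 4 of 35 higher. The muscle marker sums did not overlap between the groups, so that fit cannot tell muscle score and treatment apart.

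The core subunits carry the flavin and iron-sulphur centres along which electrons leave NADH, and the CST mean was higher in 6 of the 6 nuclear core genes listed here, with a median of 0.20. Ndufs1, on chromosome 1 from 63143596 to 63176833 (GRCm38, minus strand), encodes the largest core subunit, which holds iron-sulphur clusters. It stood at 83.1, 79.8 and 75.8 FPKM in CST mice and at 71.8, 66.3 and 67.8 in Yoda1 mice. Every CST library lay above every Yoda1 library, and the means were 79.6 ± 3.70 and 68.6 ± 2.82 (SD, n = 3 each). The log2 difference was 0.21 with a standard error of 0.18 and an adjusted p of 0.9999 in limma, and it stayed between 0.18 and 0.25 without any 1 library. Its exons overlap those of Ino80dos over 489 bases and of Eef1b2 over 9 bases on the other strand, and no source used here says whether the counting used strand.

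Ndufv1 encodes the subunit that binds NADH and the flavin. It stood at 59.3, 87.3 and 92.0 FPKM in CST and at 75.6, 87.6 and 59.6 in Yoda1, with CST mouse 1 and Yoda1 mouse 3 both at the bottom. Ndufv2, which carries a further iron-sulphur cluster, had 221, 204 and 227 FPKM in CST and 189, 245 and 138 in Yoda1. Only Yoda1 mouse 3 was well below the rest, and the log2 difference of 0.23 was 0.01 without it. Ndufs3, a core subunit of the arm in the matrix, had 143, 151 and 168 FPKM in CST and 129.8, 172 and 108 in Yoda1, again with overlapping groups.

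The accessory subunits surround this core. In the Ndufa genes 11 of 13 were higher in CST with a median of 0.15, in the Ndufb genes of the membrane arm 10 of 10 with a median of 0.17, and in the other accessory genes (Ndufc1, Ndufc2, Ndufs4, Ndufs5, Ndufs6 and Ndufv3) 5 of 6 with a median of 0.13. Ndufa12 (chromosome 10, 94198720 to 94221443), an accessory subunit of the arm in the matrix, had the widest range of all 58 genes. It was at 70.5, 106 and 118 FPKM in CST and at 76.0, 107 and 20.0 in Yoda1, a 5.91-fold span from lowest to highest. Its log2 difference of 0.79 (standard error 0.57, adjusted p 0.9999 in limma) was the greatest of the 58 and was 0.08 without Yoda1 mouse 3.

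Ndufb9, a membrane-arm subunit, had 102, 87.2 and 129 FPKM in CST and 90.4, 131 and 42.5 in Yoda1. Its difference of 0.39 turned to -0.06 without Yoda1 mouse 3. Ndufb5, of the same arm, had 93.6, 86.7 and 103 FPKM in CST and 75.6, 101 and 68.3 in Yoda1. Ndufc1, a small membrane subunit, had 72.6, 80.1 and 93.7 FPKM in CST and 70.0, 95.5 and 50.2 in Yoda1. In Ndufb9, Ndufb5 and Ndufc1 alike the lowest value was that of Yoda1 mouse 3 and the groups overlapped.

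Ndufa5, in the arm that lies in the matrix, had 234, 153 and 189 FPKM in CST and 144, 218 and 140.0 in Yoda1, with CST mouse 1 highest. Ndufa4 is counted here under complex I by its symbol, although its protein was later assigned to complex IV. It was the most abundant Nduf transcript, at 566, 386 and 469 FPKM in CST and 402, 422 and 605 in Yoda1. Here CST mouse 1 and Yoda1 mouse 3 were the 2 highest libraries, the reverse of Ndufv1, and the difference was -0.00. The 2 lowest Nduf levels were those of Ndufb2 (4.21, 3.64 and 2.81 in CST, 2.75, 3.47 and 3.67 in Yoda1, FPKM) and Ndufb8 (15.8, 14.0 and 10.5 in CST, 15.0, 11.6 and 12.2 in Yoda1). Both genes, like Ndufb9, share exon bases on the same strand with another annotated gene that is itself listed at 0 (Gm42420, Gm20538 and Gm49356). The shared bases numbered 145, 134 and 201 in Ndufb2, Ndufb8 and Ndufb9, or 2.58%, 4.26% and 19.5% of all annotated exon bases. A single coding transcript of these genes is only 455, 680 and 704 bases long. The shared part of a transcript can therefore be larger than these percentages, and it was not worked out. How the authors' counting treated shared reads is not known, and its effect on these levels was not tested.

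Complex II, succinate dehydrogenase, had its lowest sum in Yoda1 mouse 3, as complex I did. The 4 genes summed to 337, 436 and 409 FPKM in CST and to 409.6, 427 and 296 in Yoda1. The means were 394 ± 51.2 and 378 ± 70.8 (SD, n = 3 each), with overlapping groups. The CST mean was higher in 3 of the 4 genes, and the median difference was 0.08, with a range of -0.01 to 0.17. It was -0.10 without Yoda1 mouse 3, with 0 of 4 higher in CST.

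Sdha, the flavoprotein that oxidises succinate, had 149, 198 and 179.9 FPKM in CST and 189, 175 and 142 in Yoda1. Sdhb, the iron-sulphur subunit, had 41.8, 59.8 and 65.9 FPKM in CST and 57.0, 67.8 and 34.4 in Yoda1. Sdhc, a membrane anchor, had 52.3, 84.4 and 83.3 FPKM in CST and 72.4, 80.1 and 44.2 in Yoda1. In each of the 3, CST mouse 1 was the lowest CST library and Yoda1 mouse 3 the lowest of all. Sdhd, the other anchor, whose promoter is printed above, was flatter: 93.8, 94.5 and 79.8 FPKM in CST and 90.8, 104 and 75.9 in Yoda1. Its difference was -0.01 with a standard error of 0.21.

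Complex III, which hands electrons from ubiquinol to cytochrome c, was the most level of the 4. Its 9 genes summed to 2322, 2273 and 2535 FPKM in CST and to 2128, 2654 and 2334 in Yoda1. The means were 2377 ± 139 and 2372 ± 265 (SD, n = 3 each). The CST mean was higher in 6 of 9 genes and the median difference was 0.04 (range -0.11 to 0.17), which became -0.04 without Yoda1 mouse 1. The median ratio of a gene's highest to its lowest library was 1.34 here, against 1.83 in complex I, 1.65 in complex II and 2.00 in complex IV.

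Uqcrfs1 (chromosome 13, 30540308 to 30545362, minus strand) encodes the Rieske iron-sulphur protein, which takes the electron from ubiquinol. It stood at 83.7, 88.8 and 86.4 FPKM in CST and at 73.4, 83.1 and 75.5 in Yoda1. The lowest CST library lay just above the highest Yoda1 library, and the means were 86.3 ± 2.56 and 77.3 ± 5.13 (SD, n = 3 each). The log2 difference was 0.16 with a standard error of 0.18 and an adjusted p of 0.9999 in limma. Uqcrfs1 and Ndufs1 were the only 2 of the 58 genes whose groups did not overlap, 3.45%, both with CST higher. Over all genes tested 6.59% did not overlap, 4.52% with CST higher and 2.08% with CST lower, so the share among the subunits was not above the background.

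Uqcrc1 and Uqcrc2 encode the core proteins that face the matrix. Uqcrc1 had 186, 293 and 314 FPKM in CST and 222, 269 and 203 in Yoda1, and Uqcrc2 had 179, 176 and 168 in CST and 153, 157 and 178 in Yoda1. Uqcrc2 was the steadiest of the 58 genes, with a ratio of 1.17 between its highest and lowest library, whereas CST mouse 1 was the lowest library for its partner. The small subunits leaned the other way from the rest: the CST mean was higher in 2 of 5, with a median of -0.08. Their standard errors ran from 0.20 to 0.27, and Yoda1 mouse 2 was the highest library for 4 of the 5. Uqcrq, one of them, had 324, 304 and 344 FPKM in CST and 309, 379 and 359 in Yoda1. Uqcrh is the hinge protein that helps cytochrome c bind and had the highest mean FPKM in complex III. It had 417, 359 and 459.8 in CST and 383, 519 and 405 in Yoda1. With recovered reads divided by the GENCODE M21 exon length it stood at 188, below Uqcr10 (248), Uqcrb (247) and Uqcr11 (210). In both Uqcrq and Uqcrh, Yoda1 mouse 2 was highest and CST mouse 2 lowest.

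Complex IV, cytochrome c oxidase, had the highest levels per gene, with a median of 423 FPKM, against 257 in complex III, 115 in complex I and 79.6 in complex II. These levels depend on the gene length by which the authors divided. That length equalled the GENCODE M21 exon length in 8 of the 58 genes, and the exon length was larger by a median factor of 2.16. With recovered reads divided by the exon length the medians were 193, 129, 57.2 and 31.4 in complexes IV, III, I and II, so the order of the complexes was the same on both scales. The 10 complex IV genes summed to 3386, 4191 and 4584 FPKM in CST and to 3857, 4701 and 3286 in Yoda1. The means were 4053 ± 611 and 3948 ± 712 (SD, n = 3 each), and the 2 lowest libraries were CST mouse 1 and Yoda1 mouse 3. The CST mean was higher in 7 of 10 genes, with a median of 0.11 (range -0.18 to 0.32). It was -0.05 without Yoda1 mouse 3 and -0.00 without CST mouse 3.

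**Figure D2:**
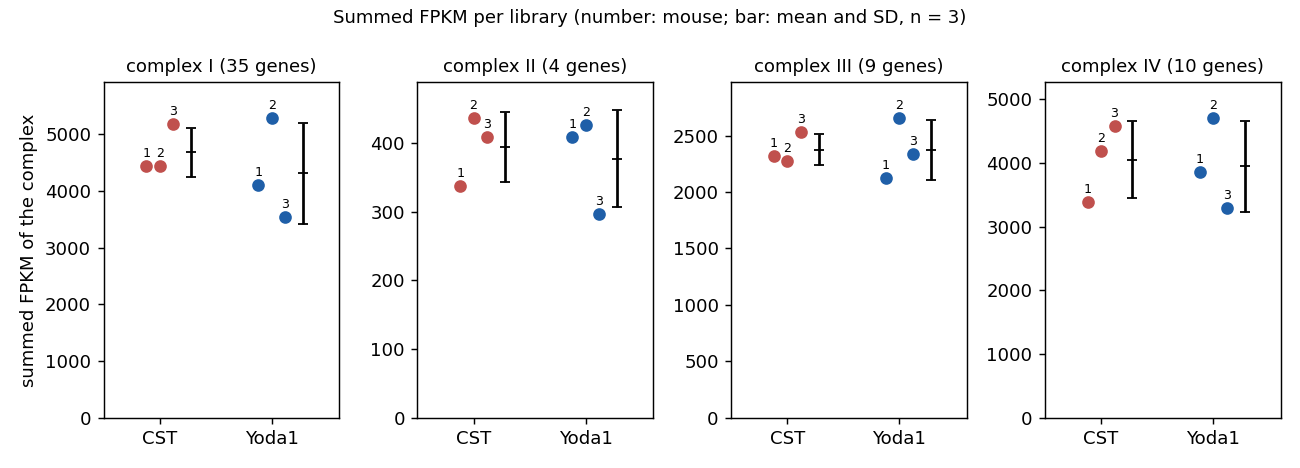
Summed FPKM of the nuclear subunit genes of each complex in every library; coloured points are single mice with their number, and the black mark beside them is the group mean with its SD (n = 3). In each of the 4 panels the CST and Yoda1 points overlap.

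Cox6b1, which helps join the oxidase into a dimer, had the highest mean FPKM of the 58 genes. It stood at 428, 753 and 799 FPKM in CST and 586, 888 and 386 in Yoda1. With recovered reads divided by the exon length it was below Cox8a (370 against 387). Cox4i1, the widely expressed isoform of the subunit through which ATP inhibits the enzyme, had 349.8, 585 and 676 FPKM in CST and 527, 719 and 248 in Yoda1. Both Cox6b1 and Cox4i1 ran low in CST mouse 1 and Yoda1 mouse 3. Cox5a, its partner near the matrix face, had 111, 149 and 163 FPKM in CST and 111, 159 and 78.6 in Yoda1. Its difference of 0.32 (standard error 0.30) was the greatest in complex IV and was 0.07 without Yoda1 mouse 3. Cox7c, a small membrane subunit, had 433, 553 and 573 FPKM in CST and 468, 578 and 386 in Yoda1. Cox7b, another small one, named after its values were seen, ran the other way: 541, 310.0 and 305 FPKM in CST and 319, 279.7 and 600.3 in Yoda1. CST mouse 1 and Yoda1 mouse 3 were thus highest for Cox7b and lowest for Cox7c.

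**Figure D3:**
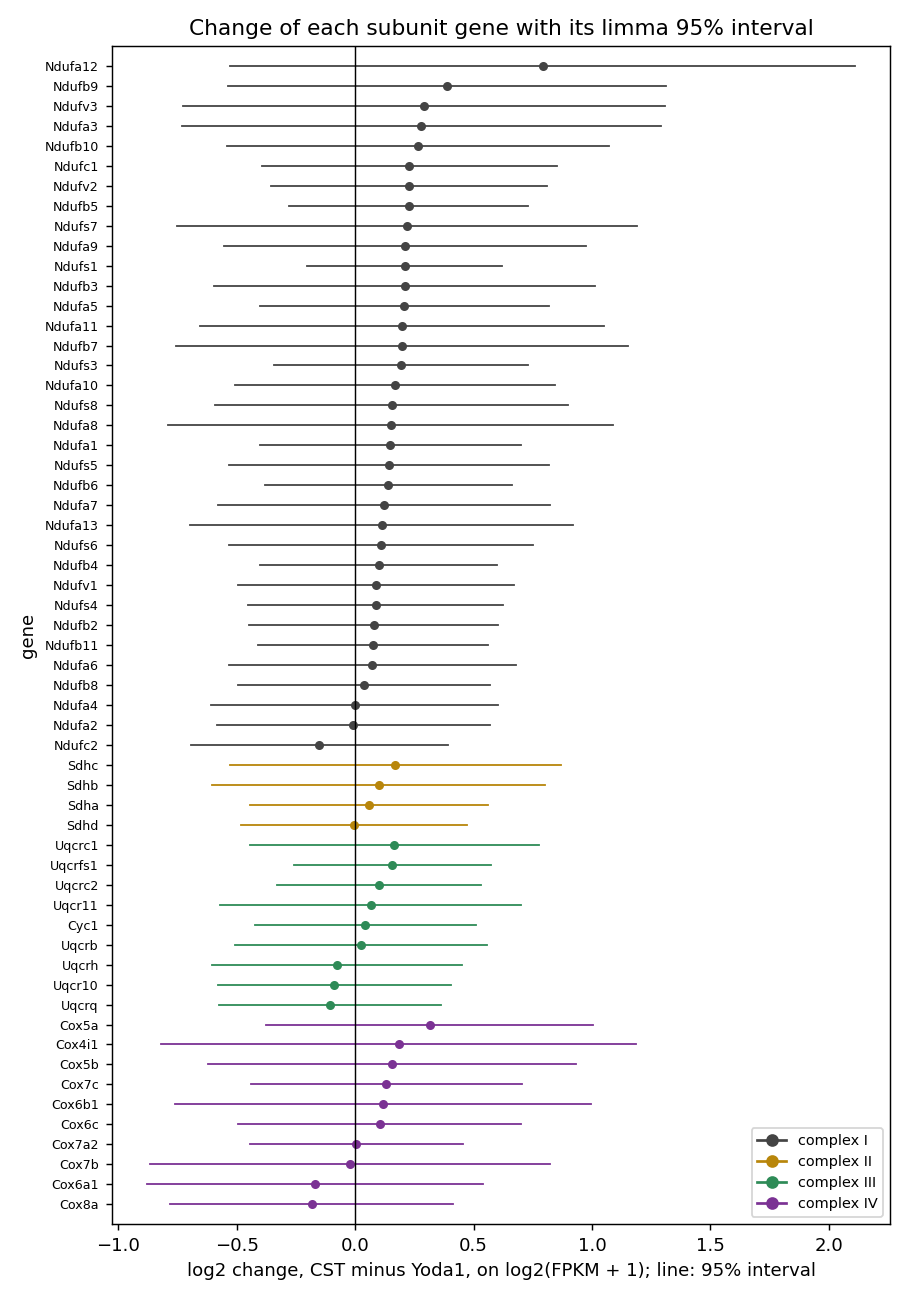
Fitted log2 difference of each of the 58 genes, CST minus Yoda1, as a point with its confidence interval as a line, coloured by complex; the vertical line marks 0. Every interval crosses 0, and those of Ndufa12 and the other genes that vary most between mice are the widest.

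Cox6a1, Cox7a2 and Cox8a are the widely expressed forms of subunits that striated muscle makes from other genes, Cox6a2, Cox7a1 and Cox8b. The CST mean of the widely expressed form was higher in 1 of the 3, with a median difference of -0.17. Cox6a1 had 299, 529 and 589 FPKM in CST and 546, 571 and 426 in Yoda1; CST mouse 1 was lowest, and the difference of -0.17 became 0.13 without it. Cox8a had 308, 469 and 512 FPKM in CST and 499, 507 and 428 in Yoda1, likewise lowest in CST mouse 1, with a difference of -0.18 that became 0.04 without it. Cox7a2 was steady, at 234, 202 and 217 FPKM in CST and 199, 214 and 237 in Yoda1.

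The muscle forms, which are not among the 58, were higher in CST like the muscle markers. Cox6a2 was at 95.5, 90.9 and 186 FPKM in CST and 2.13, 55.8 and 5.19 in Yoda1. Every CST library lay above every Yoda1 library, and the log2 difference was 3.52 with a standard error of 0.95 and an adjusted p of 0.584 in limma, which did not pass. Cox8b was at 109, 69.9 and 136 FPKM in CST and 35.0, 50.8 and 4.55 in Yoda1, again without overlap (difference 2.23, adjusted p 0.813 in limma). Cox7a1 was at 26.9, 18.7 and 60.7 in CST and 8.77, 19.6 and 0.957 in Yoda1, where the groups overlapped. As a share of the pair, Cox6a2 made up 24.2%, 14.6% and 24.1% of Cox6a1 plus Cox6a2 in CST and 0.390%, 8.90% and 1.20% in Yoda1. In FPKM the widely expressed form thus remained the larger part of each pair in all 6 libraries. These shares depend on the lengths by which the authors divided, which for Cox6a1 was 298 bases against an exon length of 702. In reads, Cox6a2 and Cox6a1 held 1566 and 2151 in CST mouse 1 and 3683 and 5096 in CST mouse 3. Shares on other lengths were not worked out. The share of the 58 genes' own FPKM that came from muscle was not tested.

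**Figure D4:**
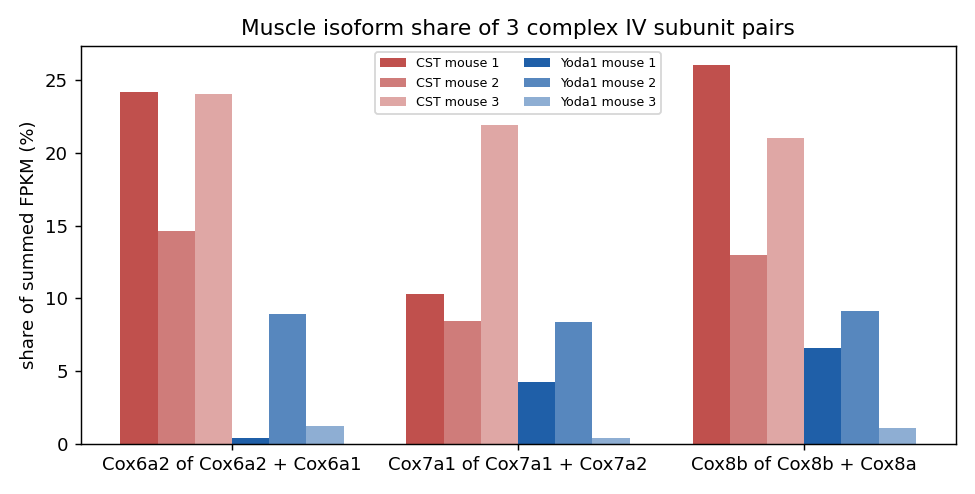
Share of the muscle form in the FPKM of each isoform pair of complex IV, in percent, with 1 bar per mouse (CST red, Yoda1 blue). The CST bars are all taller for Cox6a2 and Cox8b, and for Cox7a1 the shortest CST bar (8.46%) is close to the tallest Yoda1 bar (8.38%).

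The medians of the 58 genes differed more between mice of 1 treatment than between the treatments. The median deviation of a gene from its own mean on the log2 scale was -0.12, 0.08 and 0.25 across the CST libraries and -0.09, 0.26 and -0.35 across the Yoda1 libraries. Over all genes tested the same medians ran only from -0.11 to 0.09. A first component held 82.7% of the squared deviations of the 58 genes. The lowest library was Yoda1 mouse 3 for 35 of the 58, or 60.3%, against 29.1% of all genes tested, and the highest was CST mouse 3 or Yoda1 mouse 2 for 38. The mice with the highest medians therefore came 1 from each treatment.

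Not all subunits followed this pattern. Over the 6 libraries, 24 genes correlated above 0.9 with the mean of the other members, and Ndufc1 reached 0.99. The remaining ones ran from there down to 11 genes with a correlation below 0, which were Ndufa4, Ndufa6, Ndufb2, Ndufb4, Ndufb8, Ndufc2, Ndufs4, Uqcrc2, Uqcrb, Cox7a2 and Cox7b, the last at -0.88. They include genes of complexes I, III and IV and none of complex II. All 11 were highest in CST mouse 1 or Yoda1 mouse 3, compared with 4 of the other 47. That contrast largely restates how the 11 were picked and is not a separate result. The median deviation of the subunit genes was lowest in those libraries, so a gene with a negative correlation tends to be highest there. Each correlation describes 6 points, and all genes of a library share its depth and preparation.

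The base composition of the transcripts was also set beside that split. The median GC content was 48.8% in the 11 genes and 52.5% in the other 47, but the ranges overlapped almost wholly, from 42.0% to 55.3% and from 42.0% to 60.7%. Across the 58 genes, the correlation of a gene's deviation with its GC content was -0.53 in CST mouse 1 and -0.35 in Yoda1 mouse 3, and 0.30, 0.43, 0.33 and 0.51 in CST mice 2 and 3 and Yoda1 mice 1 and 2. Across 12986 genes of the table it was -0.38 and -0.30 in the former libraries and 0.33, 0.34, -0.03 and 0.28 in the latter. Genes of 1 library are not independent, so no p is given. After a correction for GC content the median deviation of the 58 genes became 0.06, -0.02 and 0.18 for CST and -0.18, 0.25 and -0.21 for Yoda1, so CST mouse 1 no longer ran low while Yoda1 mouse 3 still did. The median differences between treatments by complex were 0.16, 0.07, 0.05 and 0.11 after that correction, chosen after seeing the data. The part of GC content in the pattern was not tested beyond it.

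**Figure D5:**
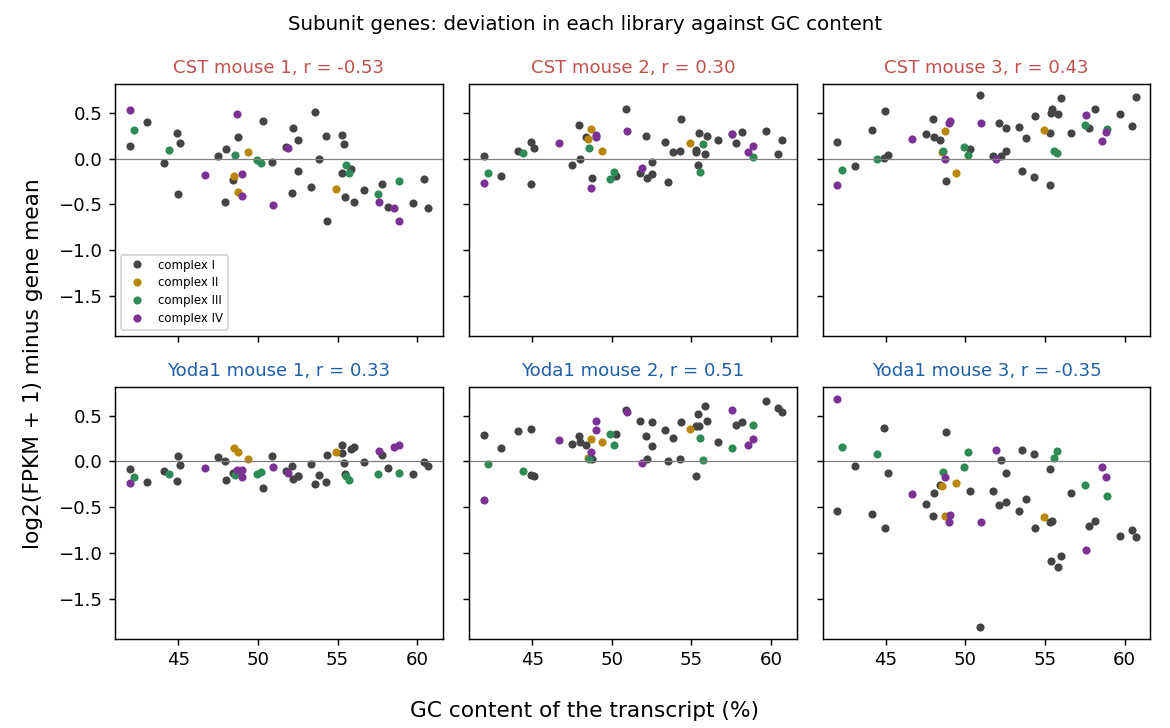
Deviation of each of the 58 genes from its own mean, log2(FPKM + 1), against the GC content of its transcript in percent, with 1 panel per library and its correlation above it. The points slope down in CST mouse 1 and Yoda1 mouse 3 and slope up in the other 4 libraries.

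The mitochondrially encoded partners had another order of libraries than most nuclear subunits. The 13 mitochondrially encoded genes had 5 higher in CST, 0 past the test and a median difference of -0.05. The ratio of mitochondrially encoded to nuclear FPKM in complex I stood at 4.78, 2.46 and 2.45 in the CST libraries and at 3.07, 2.34 and 5.96 in the Yoda1 libraries. In complex IV it stood at 4.23, 1.45 and 1.37 in CST and at 2.17, 1.44 and 6.28 in Yoda1, and in complex III, whose only mitochondrial subunit is cytochrome b, 4.80, 2.56 and 2.36 in CST and 2.96, 2.28 and 4.89 in Yoda1. In all 3 complexes CST mouse 1 and Yoda1 mouse 3 had the highest ratios, so the groups overlapped. The complex IV ratio mainly follows mt-Co1, whose mean over the libraries was 9779 FPKM, against 411 for mt-Co2 and 220 for mt-Co3. mt-Co3, an oxidase core subunit, was at 301, 123 and 137 FPKM in CST and 255, 156 and 349.9 in Yoda1, a difference of -0.48 with a standard error of 0.42.

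In each list of other genes of the pathway, 0 genes passed limma's test. Of 17 nuclear genes tested for complex V, the ATP synthase, with that of its inhibitor (Atpif1) included, 15 were higher in CST, with a median of 0.14. Of 48 assembly factors tested, 31 were higher, with a median of 0.03. Cox17, a copper chaperone for the oxidase, was at 31.4, 37.5 and 34.8 FPKM in CST and 30.4, 38.0 and 13.8 in Yoda1, again low in Yoda1 mouse 3. Of 10 other nuclear subunits and isoforms tested, the muscle forms included, 9 were higher, with a median of 0.31.

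Of the 11 genes for cytochrome c and ubiquinone synthesis, 8 were higher in CST, with a median of 0.16. Coq8a, an ADCK-family protein needed for ubiquinone synthesis, was at 56.3, 54.4 and 74.4 FPKM in CST and 18.3, 46.1 and 7.24 in Yoda1. The groups did not overlap, and the difference was 1.67 with a standard error of 0.56 and an adjusted p of 0.776 in limma, which did not pass. Yoda1 mouse 2 was the highest of the Yoda1 libraries for Coq8a, as it was for the muscle marker sum. Coq9, a lipid-binding partner in that synthesis, was at 49.9, 49.4 and 59.1 FPKM in CST and 42.0, 41.3 and 39.5 in Yoda1, with a difference of 0.36.

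Markers of other cell types in the skin also leaned 1 way. The 11 neutrophil markers tested were all higher in CST, with a median of 0.94. All 12 summed to 1823 to 11284 FPKM in CST and 764 to 4148 in Yoda1, with CST mouse 1 highest. S100a8 and S100a9 held most of the sum in that library, at 3066 and 7553 FPKM, against 36.2 for Csf3r and 30.7 for Cxcr2. The 10 macrophage markers were higher in 1 of 10 (median -0.53; 1062 to 1467 FPKM in CST, 867 to 3691 in Yoda1) and the 8 fibroblast markers in 0 of 8 (median -0.51; 3881 to 6275 in CST, 3687 to 11689 in Yoda1). The 8 adipocyte markers were higher in 0 of 8 (median -0.56) and the 7 endothelial markers in 0 of 7 (median -0.14), both with overlapping sums. None of these markers passed the test. With the muscle score of each library as a covariate, 10 of the 58 subunit genes had a higher fitted level in CST and the median was -0.16. With the neutrophil score it was 45 of 58 and 0.41. The muscle marker sums did not overlap between the groups, so muscle score and treatment cannot be told apart in the former fit. The part of these cell types in the subunit levels was otherwise not tested.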

How the data were processed

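RNA of skin from 6 mice, 3 per treatment, was sequenced. Per the labels, total RNA was taken with a Qiagen RNeasy kit, and the mice are numbered as separate animals. What the authors deposited were FPKM values per gene in 1 table, with no counts. No source used here names the aligner, counter or strand setting. The builds GRCm38 and mm10 are named per the submitters' processing notes. Of 52029 identifiers found in GENCODE M21, 2.81% had the deposited start, so positions are those of GENCODE M21 on GRCm38. Depth was worked out from the FPKM steps: all 14588 tested genes gave whole reads (within 0.005 reads), against 0.2% of 500 genes at wrong depths. Intervals and read numbers cover counting error or the spread between these mice only.

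Differences were tested with limma 3.58.1 in R 4.3.3 (eBayes with trend, two-sided) on log2(FPKM + 1) for the 14588 genes whose mean reached 1 FPKM; all 58 members passed that filter. P-values were adjusted by Benjamini-Hochberg over all of them, with a threshold of 0.05. The scale understates the change of low genes. Confidence intervals are limma's, at 95%. Sums, shares and figures were made with Python 3.11.15, pandas 2.3.3 and matplotlib 3.10.9. GC content is that of 1 transcript per gene in GENCODE M21.

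The members and all gene lists were chosen with earlier results of these data known, so list counts and medians are descriptions. Named with all values are, in each complex, the 4 members (8 in complex I) of smallest unadjusted p, those of highest and lowest mean, a panel of 12 genes, members whose groups do not overlap, the muscle isoforms, and up to 2 genes of smallest p per pathway list. Alternatives covered the pseudocount, filter, scaling, variance model, recovered reads, covariates, a replicate block, GC content and single libraries left out. The script was tested on simulated data.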

Additional observations from a re-analysis of the deposited data

How the results depend on the processing

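The 58 genes gave 0 calls under each of the 24 alternatives. Over all genes, limma with library weights called 1348 genes, and leaving out 1 library gave 0 to 136 calls: 136 with Yoda1 mouse 2 left out, 8 with CST mouse 2 left out, and 0 for the others. With library weights the medians of complexes I to IV were 0.15, 0.03, 0.17 and 0.09, with 8 of 9 genes higher in complex III. In that limma fit 6 of the 58 had an unadjusted p under 0.05, and the smallest adjusted p was 0.12. Adding the muscle score to the fit turned the median changes of all of complexes I to IV, to -0.17, -0.04, -0.11 and -0.17, and adding the neutrophil score gave 0.46, 0.36, 0.06 and 0.36. The muscle marker sums did not overlap between the groups, so the fit with the muscle score cannot tell it apart from treatment. The cause was not tested. Leaving out 1 library moved the median from -0.03 to 0.37 in complex I, -0.10 to 0.23 in complex II, -0.04 to 0.08 in complex III and -0.05 to 0.23 in complex IV; the signs turned without Yoda1 mouse 3 in complexes I, II and IV, without Yoda1 mouse 1 in III and, at -0.00, without CST mouse 3 in IV. Without both CST mouse 1 and Yoda1 mouse 3, an alternative added after seeing the data, the medians were 0.05, 0.03, 0.03 and 0.04. Of 671 values of the 28 named genes, 65 had the other sign and 0 were called. After removal of group means, same-numbered mice correlated at -0.08, 0.21 and -0.20, and unlike-numbered mice at -0.34 to 0.34. With 3 mice a group these values cannot show whether mouse numbers pair the libraries. The fit with the replicate block kept 0 calls and medians of 0.15, 0.08, 0.04 and 0.11. With 3 mice a group, the standard errors of the 58 genes ran from 0.18 to 0.57.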

Other observations

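Genes outside the 58 whose levels over the 6 libraries were most like the mean of the 58 subunit genes were looked for among 14530 tested genes. Symbols of Gm with a number, or ending in Rik, were left out of the ranking. The closest 5 were Park7, a redox-sensitive protein linked to mitochondrial upkeep (r = 0.996), Rpl19 of the large ribosomal subunit (0.993), S100b (0.993), Hs3st6, a heparan sulphate sulphotransferase (0.992), and Pam16, part of the mitochondrial protein import motor (0.992). Park7 was at 143, 176 and 223 FPKM across the CST libraries and at 153, 224 and 90.4 across the Yoda1 libraries. Over only 6 libraries, 160 of all 14530 genes had an r above 0.95. They describe likeness in these libraries alone.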
